A study of Mus musculus with 36 samples.

Results

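The flavin-containing monooxygenases (Fmo) of mouse liver were followed by RNA-Seq from before birth to adulthood. The 4 genes described here, Fmo1, Fmo2, Fmo4 and Fmo5, were taken by symbol from the 21889 gene symbols of the expression table, without use of any measured value, and all 4 were present. The livers came from 36 male C57BL/6 mice, 3 at each of 12 ages. The earliest was GD17.5 (gestational day, labelled Day -2), followed by the day of birth (Day 0), Days 1, 3 and 5, every 5 days from Day 10 to Day 30, and lastly Days 45 and 60. The mice carried no deletion and received no treatment, and the groups were defined by age. Feeding changed along with age, as the Day 0 livers were taken before suckling began and the oldest mice had been weaned. The 3 mice of an age were separate animals drawn from several litters. Expression is given as FPKM, the number of fragments scaled to both exon length and library depth, which allows levels to be compared between genes of different length. Following the grouping of ages used in the study, GD17.5 to Day 5 are called perinatal, Days 10 to 20 pre-weaning and Days 25 to 60 adolescence/adulthood. Weaning took place between Day 20 and Day 25.

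Flavin monooxygenases are enzymes of the endoplasmic reticulum that insert an atom of oxygen into nitrogen, sulfur and other nucleophilic centres of drugs and dietary amines. Each carries a bound FAD and takes its electrons directly from NADPH, whereas the microsomal cytochromes P450 depend on a separate reductase. Fmo1 has a broad range of substrates and also oxidises hypotaurine to taurine. Fmo5 is abundant in liver, and differs from its relatives in that it oxidises ketones to esters. Fmo2 is best known as the form of the lung. Fmo4 is little characterised and is low in most tissues.

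In the mm9 (NCBI37) assembly, Fmo4 (chr1:164724014-164744103), Fmo1 (chr1:164759692-164796679) and Fmo2 (chr1:164804448-164828857) were neighbours on the minus strand of chromosome 1. Fmo5 (chr3:97432727-97459205) was on the plus strand of chromosome 3. The identifiers were ENSMUSG00000026692.6 for Fmo4, ENSMUSG00000040181.8 for Fmo1, ENSMUSG00000040170.7 for Fmo2 and ENSMUSG00000028088.8 for Fmo5. The coding sequences were 60.5% (Fmo1 and Fmo5) to 63.6% (Fmo2 and Fmo4) identical between pairs. Of all words of 50 bases in the chosen transcript of each gene, 0 in Fmo1, Fmo2 and Fmo4 and 0.408% in Fmo5 were also found in protein-coding transcripts of another gene. Few fragments could thus be shared with other protein-coding transcripts by sequence alone. Pseudogenes, non-coding RNA and the rest of the genome were not searched.

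The codons of the FAD-binding site are shown because the enzymes need a bound FAD, although this glycine pattern is shared by many other enzymes that bind FAD or NAD(P). Capitals mark the 3 glycine codons of the pattern glycine, any residue, glycine, any 2 residues, glycine. Counted from the start codon, the pattern began at codon 9 in Fmo1, Fmo2 and Fmo4 and at codon 10 in Fmo5.
Fmo1: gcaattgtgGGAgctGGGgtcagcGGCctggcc
Fmo2: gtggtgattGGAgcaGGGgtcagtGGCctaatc
Fmo4: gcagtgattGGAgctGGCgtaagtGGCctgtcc
Fmo5: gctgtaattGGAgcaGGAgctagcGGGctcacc
A second match, at the NADPH-binding site, began at codon 191 in Fmo1 and Fmo4 and at codon 192 in Fmo5. These transcript sequences are from GENCODE on the same assembly.
Fmo1: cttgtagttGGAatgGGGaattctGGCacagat
Fmo4: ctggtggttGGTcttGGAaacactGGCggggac
Fmo5: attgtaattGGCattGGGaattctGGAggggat
In Fmo2 the pattern was found at the FAD-binding site only.

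The libraries of an age resembled each other, with a median Pearson r of 0.978 between mice over the tested genes (lowest 0.952, 36 pairs). The precision of low values was limited by depth, which was estimated as 85.1 in units of 1000000 fragments per library. The 4 hepatocyte markers in the table (Alb, Ttr, Apoa1 and Serpina1a) were above 0 in every mouse, and their summed level ranged from 7623 to 9187 FPKM before birth, from 37945 to 46941 FPKM in newborns of Day 0, from 70095 to 78505 FPKM at its peak on Day 15, and from 41205 to 49373 FPKM in the Day 60 mice. The summed level of 6 erythroid markers was 127142 to 185128 FPKM before birth but 650 to 714 FPKM in the oldest mice. In bulk liver, fewer cells of a type and less RNA per cell cannot be told apart, and the part of these shifts in the Fmo values was not tested. Markers of other tissues were also found. Muscle or kidney markers stood out in 4 libraries, which were Day 0 mouse 1 (1126 FPKM of 5 summed muscle markers), Day 10 mouse 1 (76.0 FPKM of the same), and Day 1 mice 2 and 3 (49.1 and 2.31 FPKM of 5 summed kidney markers). In the other 32 libraries the sums reached 12.5 FPKM for muscle and 0.131 FPKM for kidney. Exocrine pancreas markers were more widespread. The sum of 5 of them ran from 0.353 to 15513 FPKM and was above 1000 FPKM in 8 libraries, the highest being Day 60 mouse 1, and in all Day 0 mice it was at least 462 FPKM. Where leaving out these 4 or these 8 libraries ended a call named here, the value without them is given, and the part of these tissues in the results was not tested.

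All 4 genes differed from Day 60 in at least 1 age (limma on log2(FPKM + 1), adjusted p = 3.73e-07 for Fmo1, 1.36e-04 for Fmo2, 0.00661 for Fmo4 and 2.47e-12 for Fmo5). Without the 8 libraries with pancreas markers, 3 of the 4 did, and Fmo4 did not (limma, adjusted p = 0.178). Among the 11149 tested genes, 90.7% passed the same test, so that a change with age was the rule in this liver. The 4 profiles were not alike. Fmo5 climbed to its highest level at Day 60, Fmo1 was highest at Day 25 and lower at Day 60, Fmo2 was highest at Days 15 and 20, and Fmo4 stayed under 4 FPKM in every mouse. Of the other family rows, Fmo6 reached at most 0.0129 FPKM in a mouse and Fmo9 was listed at 0 in all 36 mice.

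**Figure D1:**
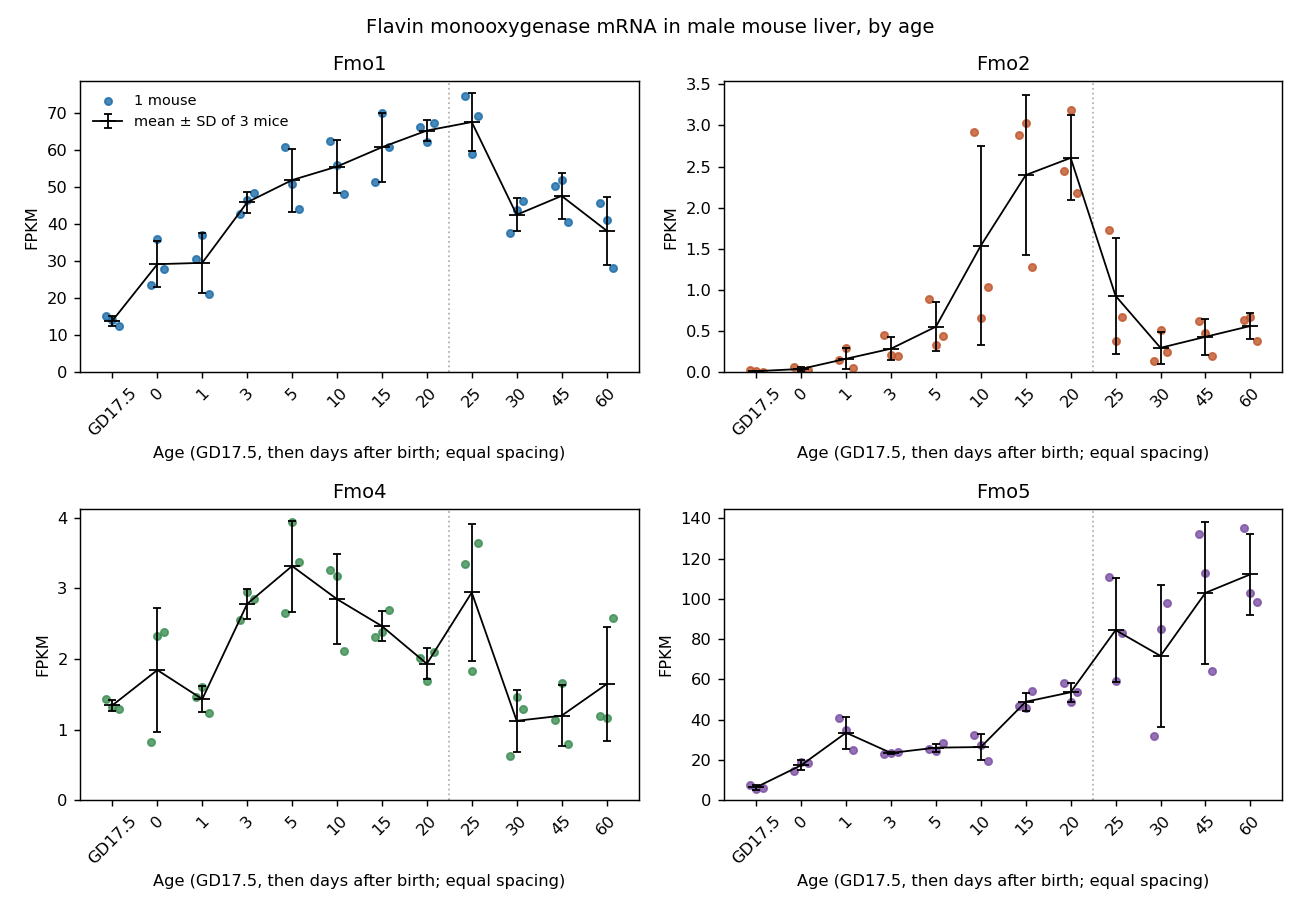
FPKM of Fmo1, Fmo2, Fmo4 and Fmo5 (vertical axes, linear, a separate scale per gene) at 12 ages (horizontal axis, equal spacing). Points are single mice, black marks and bars are the mean ± SD of 3 mice, and the dotted line marks weaning. Fmo5 reached 98.5 to 135 FPKM at Day 60, whereas the Fmo2 mice were between 0.385 and 0.669 FPKM at that age.

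Fmo5 had the largest rise of the 4 genes in FPKM and on the log2(FPKM + 1) scale. The GD17.5 mice had 7.78, 5.60 and 5.92 FPKM, and those of Day 0 had 14.6, 19.01 and 18.5 FPKM. By Day 1 the values were 40.9, 34.7 and 25.0 FPKM. The 3 mice of each of these ages lay apart from those of the age before. The Day 3 mice had 22.9, 23.7 and 23.8 FPKM, the Day 5 mice 25.2, 24.7 and 28.4 FPKM, and the Day 10 mice 32.4, 27.2 and 19.6 FPKM. From Day 3 to Day 10 the mean thus stayed between 23.5 and 26.4 FPKM, and every Day 3 mouse was below every Day 1 mouse. At Day 15 the mice had 46.9, 45.8 and 54.0 FPKM, and at Day 20 58.2, 48.9 and 53.8 FPKM. The mice of these ages overlapped each other and lay above all those up to Day 10.

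After weaning the mice of an age spread widely for Fmo5. Those of Day 25 had 111, 59.5 and 83.0 FPKM, those of Day 30 had 31.7, 85.3 and 98.2 FPKM, and those of Day 45 had 132, 113 and 64.0 FPKM. Mouse 1 of Day 30 was below every mouse of Days 15 and 20. At Day 60 the values were 135, 103 and 98.5 FPKM, and these overlapped the mice of Days 25 and 45. In order of mean level, Fmo5 ran Day 60, Day 45, Day 25, Day 30, Day 20, Day 15, Day 1, Day 10, Day 5, Day 3, Day 0 and GD17.5, and 7 of the 11 neighbouring pairs overlapped.

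The change in Fmo5 was larger than the spread between mice at each early age. Against Day 60 it was lower by limma at all 8 ages from GD17.5 (log2 difference -3.93, SE 0.29, adjusted p = 7.15e-13) to Day 20 (-1.04, SE 0.29, adjusted p = 0.0126). The Day 20 call was lost without Day 60 mouse 1 (-0.90, adjusted p = 0.0763) and without the 8 libraries with pancreas markers (-0.84, adjusted p = 0.206). The mean over Days 25 to 60 was 92.9 FPKM against 21.4 FPKM over the perinatal ages, a log2 difference of 2.16 (SE 0.14, adjusted p = 1.08e-14). It was also above the 43.0 FPKM of Days 10 to 20 (log2 difference 1.08, SE 0.16, adjusted p = 1.35e-06). Over all tested genes the median log2 difference between Days 25 to 60 and the perinatal ages was -0.54, with 85.7% of genes called, so that Fmo5 went against the general direction. Scaling each library to its upper quartile, which takes out most of that shift, gave 2.77 for Fmo5.

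Fmo1 was present before birth and was by mean level the more abundant of the pair Fmo1 and Fmo5 until Day 20, except at Day 1. The GD17.5 mice had 15.2, 14.2 and 12.5 FPKM, the newborns of Day 0 had 23.8, 35.9 and 28.1 FPKM, and the Day 1 mice had 30.5, 37.2 and 21.1 FPKM. The 3 fetal mice were below all others in the study. By Day 3 the values were 42.9, 46.4 and 48.5 FPKM, and at Day 5 61.0, 50.9 and 44.1 FPKM. Between Day 10 and Day 25 every mouse lay from 48.2 to 74.6 FPKM, and the Day 20 mice had 66.4, 62.2 and 67.4 FPKM. The Day 25 mice had the highest mean, with 74.6, 59.0 and 69.3 FPKM, and overlapped those of Day 20. At Day 30 the mice had 37.6, 44.0 and 46.2 FPKM, all below all those of Day 25. Levels of 50.4, 52.0 and 40.6 FPKM at Day 45 and 45.8, 41.1 and 28.1 FPKM at Day 60 followed.

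In order of mean level, Fmo1 ran Day 25, Day 20, Day 15, Day 10, Day 5, Day 45, Day 3, Day 30, Day 60, Day 1, Day 0 and GD17.5. Of the 11 neighbours in this order, 10 overlapped, and only GD17.5 stood apart. Fmo1 was lower than Day 60 at GD17.5 (log2 difference -1.37, SE 0.18, adjusted p = 1.39e-07) and higher at Day 25 (0.83, SE 0.18, adjusted p = 0.00391), by limma. The mean over Days 25 to 60 was 49.1 FPKM, above the perinatal 34.1 FPKM (log2 difference 0.61, SE 0.09, adjusted p = 2.83e-07). It was below the 60.6 FPKM of Days 10 to 20 (log2 difference -0.33, SE 0.10, adjusted p = 0.00536), a comparison in which 57.3% of all tested genes were called. With upper quartile scaling this fall was -0.19 (adjusted p = 0.0875) and no longer passed.

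Fmo2 was at most a trace in the fetal liver, was highest just before weaning and stayed at a low level after it. The GD17.5 mice were listed at 0.0244, 0.0129 and 0.0109 FPKM, which correspond to an estimated 3.57 to 7.46 fragments, too few for a fold change. At Day 1 the mice had 0.152, 0.298 and 0.0497 FPKM, and at Day 5 0.892, 0.331 and 0.445 FPKM. The Day 10 mice were uneven, at 2.92, 0.661 and 1.04 FPKM. At Day 15 they had 2.88, 3.03 and 1.28 FPKM and at Day 20 2.45, 3.18 and 2.18 FPKM. All 3 Day 20 mice were above every mouse of Days 25 to 60 and of the perinatal ages. The Day 25 mice had 1.73, 0.385 and 0.679 FPKM, and the Day 60 mice 0.639, 0.669 and 0.385 FPKM, which lay within the range of Day 25.

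On the log2 scale with its pseudocount of 1, the differences of such a low gene are understated. To be tested, a gene had to average 1 FPKM or more at some age. Fmo2 did so only at Days 10, 15 and 20 (1.54, 2.40 and 2.61 FPKM). Comparisons of these ages with others therefore use the ages that admitted the gene, which favours a difference. Fmo2 was above Day 60 at Day 15 (log2 difference 1.08, SE 0.24, adjusted p = 0.00107) and Day 20 (1.2, SE 0.24, adjusted p = 5.49e-04) by limma. The mean over Days 25 to 60 was 0.557 FPKM against 2.18 FPKM over Days 10 to 20 (log2 difference -1.0, SE 0.13, adjusted p = 1.99e-07), and 0.214 FPKM over the perinatal ages (log2 difference 0.34, SE 0.11, adjusted p = 0.00672). The ages ran Day 20, Day 15, Day 10, Day 25, Day 60, Day 5, Day 45, Day 30, Day 3, Day 1, Day 0 and GD17.5 by mean. Here too 10 of the 11 neighbours overlapped, the exception being Day 0 and GD17.5.

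Within an age, Fmo2 was often highest in the mouse with the most stellate and endothelial marker RNA, and seldom in that with the most erythroid marker RNA. The summed level of 5 stellate and fibroblast markers (Col1a1, Col3a1, Dcn, Lum and Pdgfrb) ran from 111 to 161 FPKM in the Day 10 mice, and mouse 1 was highest in both that sum and Fmo2. In 8 of 12 ages the mouse with the highest sum was the one with the highest Fmo2, and in 7 of 12 the lowest were the same. The counts were also 8 and 7 for 5 endothelial markers, but 1 and 0 for the 6 erythroid markers. Counts for the other marker lists are not given here, and with 3 mice per age some matches arise without any relation. At Day 10 mouse 1 also had the highest hepatocyte, macrophage and lung epithelium sums, so that its match was not particular to stellate and endothelial markers. Mouse 1 of an age had the highest Fmo2 at 7 ages, the highest endothelial sum at 9 and the lowest erythroid sum at 8. The stellate and fibroblast sum was 57.5 to 75.4 FPKM before birth, where Fmo2 was at a trace, and 19.4 to 22.2 FPKM in the Day 60 mice. The part of these cells in the Fmo2 values was not tested. Markers of lung epithelium, the tissue best known for Fmo2, summed to at most 1.13 FPKM in any library, with Scgb1a1 at 0 in 31 of 36 mice and Sftpc at 0 in 26.

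**Figure D2:**
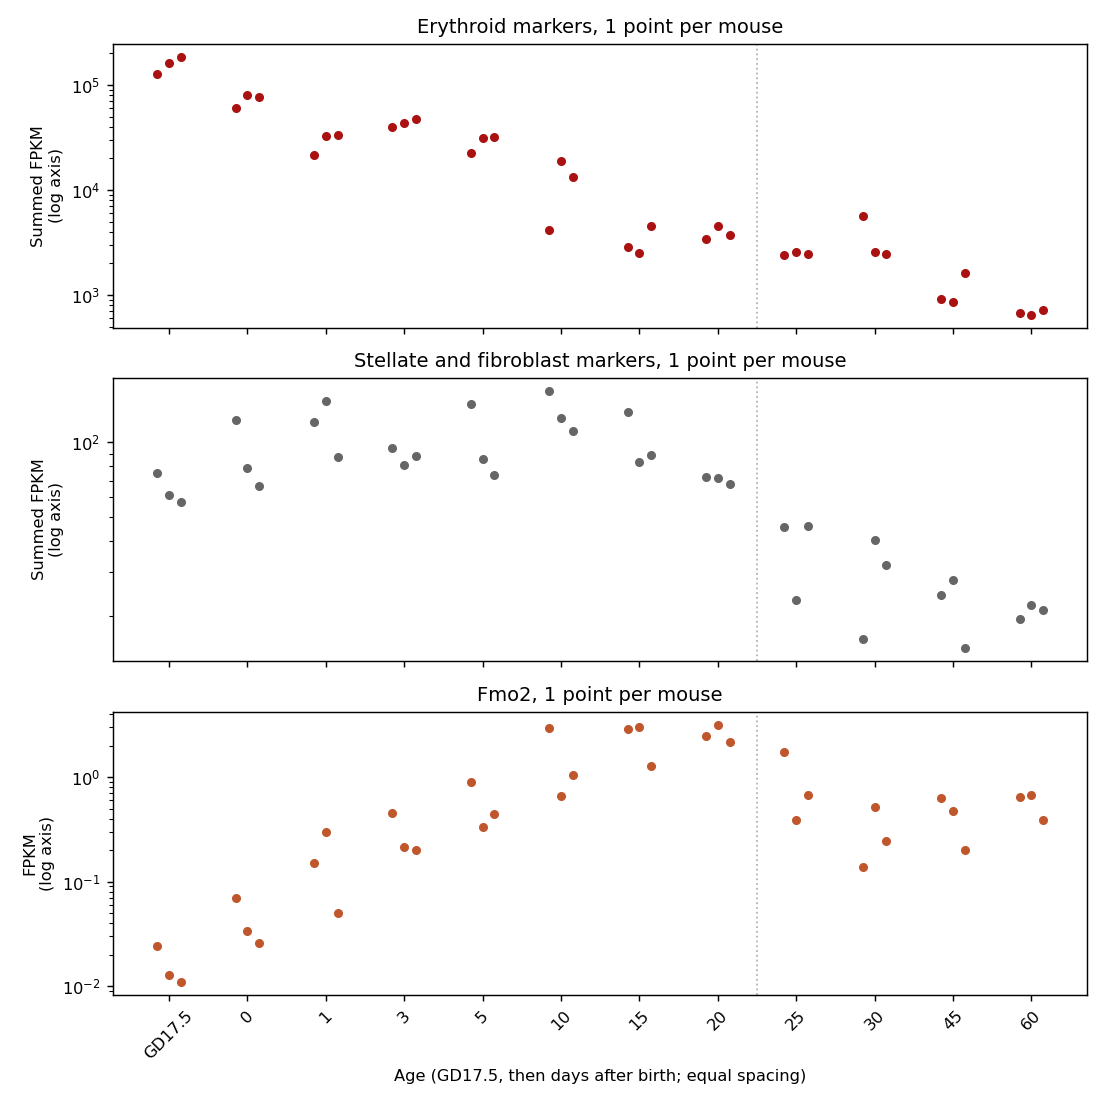
Summed FPKM of 6 erythroid markers (top), summed FPKM of 5 stellate and fibroblast markers (middle) and FPKM of Fmo2 (bottom), all on log axes, with 1 point per mouse at 12 ages of equal spacing. The stellate and fibroblast sum was highest at Day 10 (111 to 161 FPKM) and fell to 19.4 to 22.2 FPKM at Day 60, whereas Fmo2 peaked at Day 20 (2.18 to 3.18 FPKM).

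Fmo4 was low at all ages, with age means from 1.12 to 3.32 FPKM. The GD17.5 mice had 1.43, 1.32 and 1.29 FPKM, and at Day 0 they had 0.829, 2.32 and 2.38 FPKM. Mouse 1 of Day 0, the library with muscle markers, was the low one. The mice of Day 3 had 2.55, 2.94 and 2.85 FPKM and those of Day 5 had 2.65, 3.93 and 3.37 FPKM. All Day 5 mice were above all Day 60 mice, which had 1.19, 1.16 and 2.57 FPKM. At Day 10 the values were 3.26, 3.17 and 2.11 FPKM, and at Day 25 3.34, 1.84 and 3.65 FPKM. The Day 30 mice, with 0.622, 1.46 and 1.29 FPKM, were below every Day 25 mouse.

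By limma, Fmo4 was above Day 60 at Day 3 (log2 difference 0.56, SE 0.22, adjusted p = 0.0261), Day 5 (0.74, SE 0.22, adjusted p = 0.00395) and Day 10 (0.57, SE 0.22, adjusted p = 0.0330). With upper quartile scaling these were 0.13, 0.30 and 0.47 and none passed (adjusted p = 0.598, 0.224 and 0.0614), nor did they without the 8 libraries with pancreas markers (adjusted p = 0.224, 0.121 and 0.341). The Day 10 call was also lost without the 4 libraries with muscle or kidney markers (0.49, adjusted p = 0.0812), and the Day 3 call without Day 60 mouse 1 (0.44, adjusted p = 0.117), Day 60 mouse 2, Day 3 mouse 2 or Day 3 mouse 3. The mean over Days 25 to 60 was 1.73 FPKM, below the 2.41 FPKM of Days 10 to 20 (log2 difference -0.38, SE 0.12, adjusted p = 0.00640), which did not pass without the libraries with pancreas markers (-0.33, adjusted p = 0.0684). Against the perinatal mean of 2.14 FPKM, the difference of -0.22 (SE 0.10) was near the threshold (adjusted p = 0.0455), and it was 0.17 under upper quartile scaling (adjusted p = 0.0985). By mean level the order was Day 5, Day 25, Day 10, Day 3, Day 15, Day 20, Day 0, Day 60, Day 1, GD17.5, Day 45 and Day 30, and 10 of the 11 neighbours overlapped, with Days 15 and 20 apart.

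**Figure D3:**
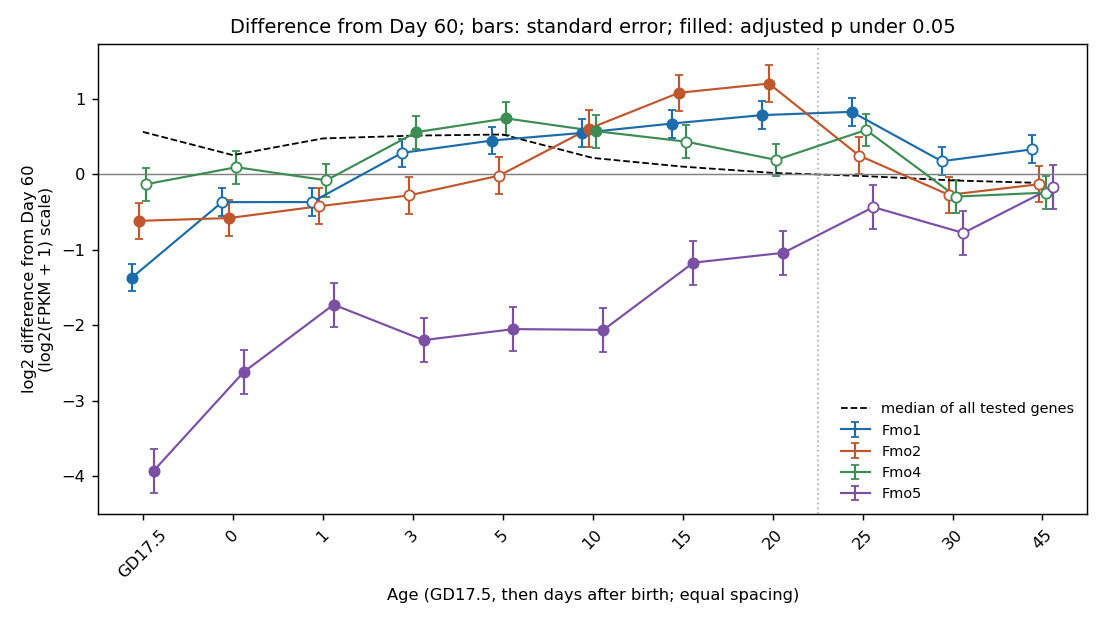
Log2 difference of each age from Day 60 on the log2(FPKM + 1) scale (vertical axis) for 4 Fmo genes at 11 ages (horizontal axis, equal spacing). Bars are standard errors, filled symbols have an adjusted p under 0.05, the dashed line is the median of all tested genes, and the dotted line marks weaning. Fmo5 lay below 0 from GD17.5 (-3.93) to Day 20 (-1.04), whereas Fmo1 and Fmo2 were above 0 at Day 20 (0.78 and 1.2).

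Compared with Day 60, 3 of 4 genes were called at GD17.5 (75.1% of all tested genes) and 2 in newborns of Day 0 (63.9%). The count was 1 for Day 1 (65%), 2 for Day 3 (66%) and 3 for Day 5 (65.4%). All 4 were called at Day 10, where 46% of tested genes were, but this count rested on Day 10 mouse 1. Without that mouse Fmo1 (0.46, adjusted p = 0.0794), Fmo2 (0.24, adjusted p = 0.425) and Fmo4 (0.49, adjusted p = 0.115) were not called. Without the 4 libraries with muscle or kidney markers, Fmo2 (0.24, adjusted p = 0.441) and Fmo4 were not. Without the 8 libraries with pancreas markers, Fmo1 (0.60, adjusted p = 0.0714), Fmo2 (0.28, adjusted p = 0.377) and Fmo4 were not. The count was also 1 with upper quartile scaling. After that, the count was 3 at Day 15 (27.4%) and again 3 at Day 20 (15.9%), then 1 at Day 25 (7.42%). It was 0 at Day 30 (3.56%) and likewise 0 for Day 45 (0.233%). Without adjustment, 1 gene (Fmo5) passed 0.05 at Day 30 and 0 at Day 45, and Dunnett's comparison also called 0 at both. At Day 20, where fewer tested genes still differed from Day 60, Fmo1 (0.78) and Fmo2 (1.2) were higher and Fmo5 (-1.04) was lower.

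At birth, 2 of the 4 genes were called, a share near that of all tested genes called in either direction. Both rose, whereas 1466 of the 11149 tested genes were called higher and 4617 lower at Day 0. From GD17.5 to Day 0, Fmo1 rose by a log2 difference of 1.00 (SE 0.18, adjusted p = 6.23e-05) and Fmo5 by 1.31 (SE 0.29, adjusted p = 5.04e-04) by limma, while 54.6% of all tested genes were called. The difference was 0.04 for Fmo2 (adjusted p = 0.913) and 0.22 for Fmo4 (adjusted p = 0.395), and without Day 0 mouse 1 Fmo4 passed (0.52, adjusted p = 0.0462). The rise of Fmo1 and Fmo5 passed with and without the 4 libraries that carried muscle or kidney markers, and the 8 with pancreas markers. Over the same step the hepatocyte sum rose from a mean of 8332 to 42629 FPKM and the erythroid sum fell to 60028 to 80405 FPKM, and their part in the rise was not tested.

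On the first day of suckling, only Fmo5 changed among the 4 genes, from 17.3 to 33.5 FPKM (log2 difference 0.89, SE 0.29, adjusted p = 0.0211 by limma, with 31.6% of tested genes called). Without the 4 libraries with muscle or kidney markers the difference was 1.08 but no longer passed (adjusted p = 0.0661), and without the 8 with pancreas markers it was 0.94 (adjusted p = 0.0701). Pancreas markers remained in all Day 0 and Day 1 libraries. It was also lost without Day 0 mouse 1 (0.78, adjusted p = 0.0665), Day 1 mouse 1 (0.74, adjusted p = 0.109) or Day 1 mouse 2 (0.86, adjusted p = 0.0577).

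Across weaning, from Day 20 to Day 25, Fmo2 was the member that changed, from 2.61 to 0.930 FPKM (log2 difference -0.95, SE 0.24, adjusted p = 0.0113 by limma, with 7.19% of tested genes called). All 3 mice of Day 25 were below all of Day 20. Day 20 was among the ages through which Fmo2 passed the filter for testing, and Day 25 was not. The call was lost without Day 20 mouse 2 (-0.84, adjusted p = 0.0739), Day 25 mouse 2 (-0.74, adjusted p = 0.112) or Day 25 mouse 3 (-0.88, adjusted p = 0.0555). Fmo5 was higher at Day 25 in every mouse, though the difference of 0.60 did not pass (SE 0.29, adjusted p = 0.256). Between Day 30 and Day 45, the period of sexual maturation, none of the 4 genes was called by limma (1.03% of tested genes). Without adjustment 1 gene passed 0.05, Fmo5 (log2 difference 0.61, SE 0.29).

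The makeup of the family changed from mainly Fmo1 to mainly Fmo5. The summed level of the 4 genes was 21.8 ± 2.41 FPKM before birth and 153 ± 27.3 FPKM in adults of Day 60 (SD, n = 3). Of this sum, Fmo1 made up 64.3% ± 2.60 before birth, 45.6% ± 4.37 in Day 1 mice and 64.7% ± 3.08 in Day 10 mice. Its share was 52.9% ± 1.30 just before weaning (Day 20), 44.1% ± 4.89 just after it (Day 25) and 25.0% ± 3.26 in the Day 60 mice. The share of Fmo5 rose from 29.4% ± 2.71 at GD17.5 to 73.5% ± 2.77 at Day 60. Because both values come from 1 library, the ratio of the genes does not depend on how libraries are scaled to each other. Fmo1 over Fmo5 was 1.95, 2.54 and 2.12 in the GD17.5 mice, 0.747, 1.07 and 0.845 at Day 1, and 1.93, 2.06 and 2.46 at Day 10. It was 1.14, 1.27 and 1.25 at Day 20, 0.671, 0.992 and 0.835 at Day 25 and 0.338, 0.400 and 0.285 at Day 60. Every mouse of Day 20 was thus above 1 and every mouse of Day 25 below it. At Day 30 the ratio was 1.19, 0.516 and 0.471, so that mouse 1 was again within the range of Day 20.

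**Figure D4:**
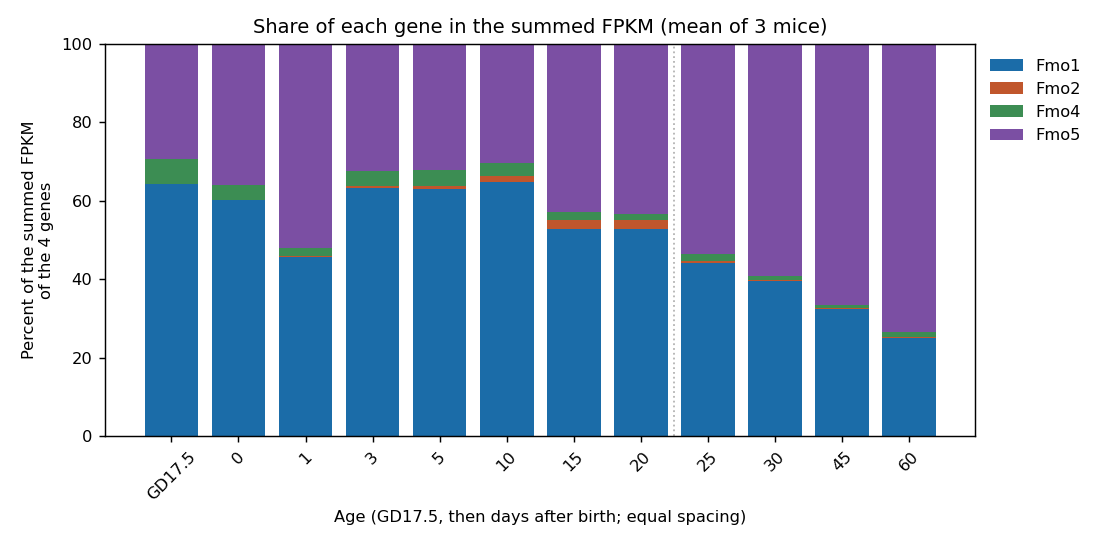
Percent of the summed FPKM of the 4 genes that each gene made up (vertical axis, stacked bars, mean of 3 mice) at 12 ages (horizontal axis, equal spacing, dotted line at weaning). Fmo1 fell from 64.3% at GD17.5 to 25.0% at Day 60, and Fmo5 rose from 29.4% to 73.5%, with an earlier peak of 51.9% at Day 1.

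The log2 ratios, with the pseudocount of 1 added to both genes, were compared between the 5 perinatal and the 4 adolescent and adult ages by exact two-sided permutation of the age means, for which the smallest possible p is 0.00794, and adjusted over the 6 pairs. The test treats the ages as interchangeable, whereas each group is a run of successive ages. A gradual change with age alone can therefore bring p near that minimum. The log2 ratio of Fmo1 over Fmo5 fell by 1.55 (exact p = 0.0159, adjusted to 0.019). Fmo4 over Fmo5 (-2.38) also fell, and Fmo1 over Fmo4 (0.83) and Fmo2 over Fmo4 (0.57) rose, all with an adjusted permutation p = 0.019. These 4 also passed on plain FPKM (adjusted permutation p = 0.0238). The size of the rise of Fmo2 over Fmo4 is understated by the pseudocount, as the GD17.5 means were 0.0161 and 1.34 FPKM. The pairs of Fmo2 with Fmo1 and with Fmo5 depended on the pseudocount, because Fmo2 was far below 1 FPKM at the earliest ages. Fmo2 over Fmo5 was -1.81 with a pseudocount of 1 (adjusted permutation p = 0.019), -1.02 with 0.1 (0.0762) and -0.06 on plain FPKM (0.944). Fmo1 over Fmo2 was 0.26 with a pseudocount of 1 (exact p = 0.476), -0.58 with 0.1 (adjusted permutation p = 0.0873) and -1.54 on plain FPKM (0.0952), and passed with none of them.

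Over the 12 age means, the members were related to different degrees. Pearson's r on the log2(FPKM + 1) scale was 0.75 for Fmo1 and Fmo2, 0.65 for Fmo1 and Fmo5, 0.55 for Fmo1 and Fmo4, 0.42 for Fmo2 and Fmo4, 0.38 for Fmo2 and Fmo5 and -0.12 for Fmo4 and Fmo5. All points share the same livers. Of the tested genes, those most like Fmo5 over the 12 ages were Cth (r = 0.99), which makes cysteine from cystathionine, Aspg (0.98), an asparaginase, and Cyp2d34 (0.98), a cytochrome P450. Most like Fmo1 were Asgr2 (0.96), a subunit of the asialoglycoprotein receptor of hepatocytes, F7 (0.96), coagulation factor VII, and Gulo (0.96), the last enzyme of vitamin C synthesis. For Fmo2 they were Atp6v0d2 (0.97), a subunit of the vacuolar proton pump, D630002G06Rik (0.95) and Dhtkd1 (0.95), a mitochondrial dehydrogenase. For Fmo4 they were Ngfr (0.88), a neurotrophin receptor, Gata4 (0.87), a transcription factor, and Tm9sf4 (0.87), so that no gene followed the small changes of Fmo4 as closely. Cth had 13.4 FPKM before birth and 151 FPKM in the Day 60 mice, while Ngfr was highest at Day 10 with 6.96 FPKM.

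The genes that supply the cofactors of the family did not move in 1 direction between the perinatal ages and Days 25 to 60. Of 5 NADPH-producing enzymes, 2 rose, 2 fell and 1 was not called. Me1, malic enzyme, rose the most (1.06 to 15.2 FPKM, log2 difference 2.96), and H6pd, which makes NADPH inside the endoplasmic reticulum, differed least (0.02, adjusted p = 0.899 by limma). Of 4 genes of FAD supply, 3 were in the table, of which Flad1, the FAD synthase, rose (log2 difference 0.75), and Rfk, riboflavin kinase, and Slc25a32, a mitochondrial carrier, fell (-0.65 and -0.32).

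Among 5 genes of taurine synthesis and use, 3 rose and 2 fell. Baat, which joins taurine to bile acids, rose from 4.32 to 55.9 FPKM (log2 difference 3.52), and Ado, a thiol dioxygenase, fell the least (-0.23). Of 4 genes listed for electron transfer to P450 enzymes, 3 were in the table and Cyb5a was not. Whether Cyb5b serves the microsomal P450 enzymes was not tested. Cyb5b rose (log2 difference 2.32), Cyb5r3 rose (0.80), and Por, the reductase that P450 enzymes need and Fmo enzymes do not, fell from 158 to 67.6 FPKM (-0.89).

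Of 5 other oxidases that are not P450 enzymes, 4 rose and 1 fell, from Aox1, an aldehyde oxidase (2.24), to Maoa, a monoamine oxidase (-0.35). Of the 11149 tested genes, 85.7% were called in this comparison, 1728 of them higher and 7824 lower at Days 25 to 60. Whether any of the lists differed from the tested genes as a whole was not tested. Relative to the median of all tested genes (-0.54), Maoa (0.19), Ado (0.31) and Slc25a32 (0.22) were above 0, so that their falls were smaller than the general shift.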

How the data were processed

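Liver RNA of 36 male mice (3 at each of 12 ages) was sequenced from polyadenylated RNA as paired ends. The authors aligned reads with TopHat 1.2.0 to mm9 and made FPKM values with Cufflinks 1.0.3, per the labels and the study's methods. The deposited FPKM values are linear, per gene symbol, and carry no counts; fragment numbers were estimated from low values, 78.4% of which came within 0.1 of whole fragments, with relative depth from 0.884 to 1.2. Values were analysed as log2(FPKM + 1) for the 11149 genes that averaged 1 FPKM or more in any age. limma 3.58.1 (R 4.3.3) was fitted to all 36 mice with age as the only factor and with a mean-variance trend. A p-value was adjusted by Benjamini-Hochberg over all tested genes (for any age, also over the 11 comparisons with Day 60), with a threshold of 0.05. P-values measure the spread between mice of an age, except those of the ratios, which rest on the spread between ages. Ratios were tested over age means with exact permutations, using scipy 1.17.1. The fits were tested on simulated data.

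The members, gene lists and tests were chosen with earlier results of these data known. Besides the 4 members, the genes named were the member of each list with the largest and the smallest difference between perinatal ages and Days 25 to 60, those on which a result turned, and the 3 genes most like each member over age means. Rfk and Por were named after their values were seen. Alternatives were pseudocount 0.1, no filter or 5 FPKM, TPM or upper quartile (75 percentile) scaling, no trend, Dunnett's comparison, leaving out mice, and a block by replicate number. Chosen after seeing the data were leaving out libraries with over 50 FPKM of muscle or 1 FPKM of kidney markers, leaving out those with over 1000 FPKM of pancreas markers, and ratios without a pseudocount. Some results are not reported here.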

Additional observations from a re-analysis of the deposited data

How the results depend on the processing

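Of 684 recomputed values of single members and ratios, 638 kept their direction and side of the threshold, 32 no longer passed, 1 newly passed and 13 changed sign. The differences of single ages from Day 60 were not among these 684. Of those differences, Fmo1 at Day 5 was called (0.45, adjusted p = 0.0357 by limma) but changed sign with upper quartile scaling (-0.17, adjusted p = 0.439). Among the 13 sign changes, only that of Fmo4 between Days 25 to 60 and the perinatal ages was of a value that passed (0.17 under upper quartile scaling). The others were Fmo1 from Day 0 to Day 1 (upper quartile -0.15, without 4 libraries with muscle or kidney markers -0.055, without 8 libraries with pancreas markers -0.018, leaving out 1 mouse -0.18 to 0.22), Fmo1 from Day 20 to Day 25 (-0.029 to 0.14), Fmo4 from Day 30 to Day 45 (-0.13 to 0.19) and Fmo1 over Fmo2 (pseudocount 0.1, -0.58; none, -1.54). The call of Fmo4 against the perinatal ages was also lost without the filter (adjusted p = 0.0595), with TPM scaling (0.199), without the 8 libraries (0.311) and by leaving out any of 17 single mice. A filter at 5 FPKM, which leaves Fmo1 and Fmo5 only, gave 2 genes changed in any age, 1 at Day 0, 1 at Day 3, 2 at Day 10, 0 at weaning, and 2 between Days 25 to 60 and each of the perinatal and pre-weaning ages. Genes called against Day 60 were 1 at Day 0 with no filter or Dunnett's comparison, 2 at Day 1 with pseudocount 0.1 or upper quartile scaling, and 1 at Day 3 with upper quartile, TPM or Dunnett. With upper quartile scaling 1 was called at Day 5, 1 at Day 10 and 2 at Day 25. At Day 10 there were 2 with no filter, TPM or without the 4 libraries, and 1 with Dunnett; without those libraries 0 changed from Day 0 to Day 1. Without the 8 libraries with pancreas markers 1 was called at Day 3, 1 at Day 10 and 0 from Day 0 to Day 1. Leaving out 1 mouse gave 1 to 3 genes at Day 0, 1 to 2 at Day 1, 1 to 2 at Day 3, 1 to 4 at Day 10, 1 to 2 at Day 25, 0 to 1 at Day 30, 0 to 1 from Day 0 to Day 1 and 0 to 1 from Day 20 to Day 25. The replicate block changed no call of a member (Fmo2 across weaning -0.95, adjusted p = 0.00376 in limma), and no label says that a number marks a shared litter or day. Same-numbered mice of other ages had a median r of 0.126 in their deviations from the age means (-0.68 to 0.83) against -0.048 for other numbers, and 19 of 36 mice correlated best with their own number, a hint from the data and not the design. The cause of these shifts was not tested. For Fmo2 and Fmo4 the low levels limit what the log2 scale can show.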
